A study of Mus musculus with 4 samples.

Results

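Myb, Myc, Mycn and Max are 4 transcription factor genes among the 31053 genes counted in mouse T-cell progenitors grown in culture. They were taken by symbol from the gene lists of both mRNA matrices, and each symbol matched 1 gene. Myb (ENSMUSG00000019982) lies at chr10:21124930-21160984, Myc (ENSMUSG00000022346) at chr15:61985341-61990361, Mycn (ENSMUSG00000037169) at chr12:12936093-12941836 and Max (ENSMUSG00000059436) at chr12:76937269-76962323 in GRCm38.p6. These are the spans of the genes in the RefSeq table of that build.

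Bone marrow progenitors were cultured on the stromal line OP9-Dll1, which displays a Notch ligand, and the study asked how Runx transcription factors act in early T-cell development. Runx1 was overexpressed with MSCV-Runx1-mCherry and set against MSCV-empty-mCherry in cells from B6.Bcl2 transgenic mice, harvested on days 4 and 6. Runx1 and Runx3 were both targeted by E42-gRunx1-humanNGFR and E42-gRunx3-mTurquoise in cells from B6.Cas9;Bcl2 transgenic mice, harvested on days 5 and 8, and set against luciferase guides in the same vectors. Each Runx gene was targeted by 3 pairs of guide RNAs, and the extent of editing in the sorted cells is not given in the sources used here. The overexpression mice were 8 to 10 weeks old, and the age of the Cas9 mice is not given in the sources used here. All cultures shared the Bcl2 transgene, which favours survival, the OP9-Dll1 feeder, IL-7 and Flt3-ligand at 10 ng/ml, vector delivery on day 2 and a sort of CD45+ lineage-negative cells that carried the vector's reporters. Each of 2 experiments had 1 mRNA library and 1 library of hashtags, antibody-borne DNA barcodes that record each cell's culture of origin. Culture lasted 4 to 5 days in experiment 1 and 4 to 8 days in experiment 2, per the labels.

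The deposited hashtag columns are named by sequence only, so no hashtag was tied to a vector, a guide or a harvest day. Each hashtag is treated as a culture of unknown condition, described on its own. Hashtags are numbered in column order, and a number shared by both experiments does not mean a shared condition. The same 8 tags in the same order were used in both experiments.

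The Myb protein is a DNA-binding activator that immature blood cells need for growth and that early thymocytes need to mature. Myc and Mycn are related basic helix-loop-helix proteins that bind E-box DNA only in a pair with Max. These pairs drive ribosome production, metabolism and cell division, and T-cell progenitors use Myc when they expand. Max also pairs with the Mxd proteins, Mxi1 and Mnt, which repress the same kind of site. Runx1 binds DNA with its partner Cbfb and is known to act in blood stem cells and T-cell progenitors.

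The promoters of Myb and Mycn are shown because these genes were high in the same hashtags in experiment 1. The 250 bases before each start are from the RefSeq promoter table of GRCm38.p6, both on the minus strand, for Myb at chr10:21160985-21161234 and for Mycn at chr12:12941837-12942086. Capitals mark the letters TTTGGCGC, known as an E2F site.
Myb: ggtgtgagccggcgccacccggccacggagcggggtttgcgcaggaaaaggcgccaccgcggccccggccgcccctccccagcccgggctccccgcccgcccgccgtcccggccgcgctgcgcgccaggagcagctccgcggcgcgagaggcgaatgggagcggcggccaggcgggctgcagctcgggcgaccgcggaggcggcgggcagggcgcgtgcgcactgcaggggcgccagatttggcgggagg
Mycn: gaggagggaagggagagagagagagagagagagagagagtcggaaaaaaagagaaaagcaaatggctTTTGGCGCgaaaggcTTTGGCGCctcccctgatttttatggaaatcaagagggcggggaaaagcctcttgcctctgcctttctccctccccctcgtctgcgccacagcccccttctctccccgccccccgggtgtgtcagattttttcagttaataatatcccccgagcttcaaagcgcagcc
The Myb stretch was 81.2% G and C, against 54.8% for Mycn. TTTGGCGC, searched on both strands, started at bases 68 and 83 of the Mycn stretch, counted from its 5′ end, and was not found in that of Myb or Max. It was present in 0.417% of 32851 stretches of this length in the table. The E-box CACGTG, found in 6.02% of them, was not in the stretches of Myb, Mycn or Max. The Runx letters TGTGGT (in 14%) were in none of those stretches, and TGCGGT (in 5.1%) was in that of Max at base 145. These are matches of exact letters, and binding was not measured. Variants of the E2F site were not searched, and the Myb stretch holds TTTGGCGG near its end.

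After filtering, 8797 cells of experiment 1 and 8335 of experiment 2 carried a single hashtag, with 691 to 1291 and 855 to 1312 cells per hashtag. The summed depth per hashtag was 14502385 to 38067298 UMIs (unique molecular identifiers, 1 per captured transcript) and 22272716 to 42684236 UMIs. Levels are UMIs per 1e6 UMIs of the same cells (CPM), and each interval is an exact 95% interval that covers counting error only. The labels describe the cells as T progenitors of an early stage with high Kit, and all 11 T-progenitor markers were above 5 CPM in at least 1 hashtag of each experiment. Markers of other blood cells were present too. The 9 granulocyte markers summed to 223 to 1527 CPM in experiment 1, with Camp at 0 in some hashtags, and to 198 to 12297 CPM in experiment 2. The 7 NK markers summed to 567 to 2061 and 327 to 2282 CPM, with Eomes at 0 in some hashtags of each. The 8 stromal markers summed to 1.37 to 58.0 and 139 to 670.3 CPM, with Dcn and Lum at 0 in some hashtags. A level summed over cells cannot tell fewer expressing cells from less RNA per cell, which the cell gates and shares further on address in part.

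Myb varied more between hashtags than Myc and Max and less than Mycn, and most cells of every hashtag held its transcript. In hashtags 1 to 8 of experiment 1 Myb was at 266, 251, 422, 432, 325, 280.2, 226 and 222 CPM. Hashtags 3 and 4 stood above the other 6, and hashtags 7 and 8 were lowest. The highest level was 1.95 times the lowest (interval 1.87 to 2.02). Of the 7 pairs of neighbours in the order of levels, 5 had intervals of their ratio that excluded 1. Hashtags 4 and 3 were not apart, and neither were 7 and 8. In experiment 2 the Myb levels were 128, 209, 158, 254, 136, 94.6, 241 and 139 CPM. Hashtags 4 and 7 were highest and hashtag 6 was lowest, and 6 of 7 neighbours were apart, all but hashtags 8 and 5. The ratio of highest to lowest was 2.68 (2.56 to 2.81) and 1.98 without hashtag 6.

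A gene was called variable where its highest hashtag was at least 1.5 times its lowest and the interval of that ratio was above 1. That held for 26.6% of 8767 genes tested in experiment 1 and for 36% of 8766 in experiment 2, so a call alone does not set a gene apart. Of the 4 members, 3 were called in experiment 1 (Myb, Myc and Mycn) and 2 in experiment 2 (Myb and Mycn). A ratio at or above that of Myb was held by 11.4% of genes in experiment 1 and 10.6% in experiment 2. With conditions unknown and 1 library per experiment, there is no replicate check on any of these ratios and no test.

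Some marker sums also differed between these hashtags, though not always in step with Myb. In hashtags 3 and 4 of experiment 1, where Myb was highest, the 16 G2/M genes summed to 2543 and 2698 CPM, against 1932 to 2436 CPM in the other hashtags. In hashtag 6 of experiment 2, where Myb was lowest, the granulocyte markers summed to 12297 CPM, the highest of the 8 hashtags. In experiment 1 the granulocyte sum was lowest in hashtag 7 (223 CPM), where Myb was low as well. The 7 NK markers, of which 3 were above 5 CPM in any hashtag of experiment 1 and 6 in experiment 2, summed to 1777 to 2061 CPM in the 4 hashtags of experiment 1 with most Myb. They summed to 567 to 774 CPM in the other 4. In experiment 2 they were highest in hashtag 7 (2282 CPM) and lowest in hashtag 6 (327 CPM). Hashtag 8 of experiment 2, with Myb at 139 CPM, had 1745 CPM of NK markers and 2479 CPM of G2/M genes. With the gated cells of other classes left out, the Myb ratios were 1.96 and 2.91, as large as before. Among cells with at least 2 UMIs of both Kit and Il2ra, which are genes of T-progenitor surface receptors, Myb still ranged over 1.95-fold in experiment 1 and 2.01-fold in experiment 2. In those cells of experiment 2 hashtag 6 was again lowest, at 163 CPM, and hashtag 4 highest, at 327 CPM.

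**Figure D1:**
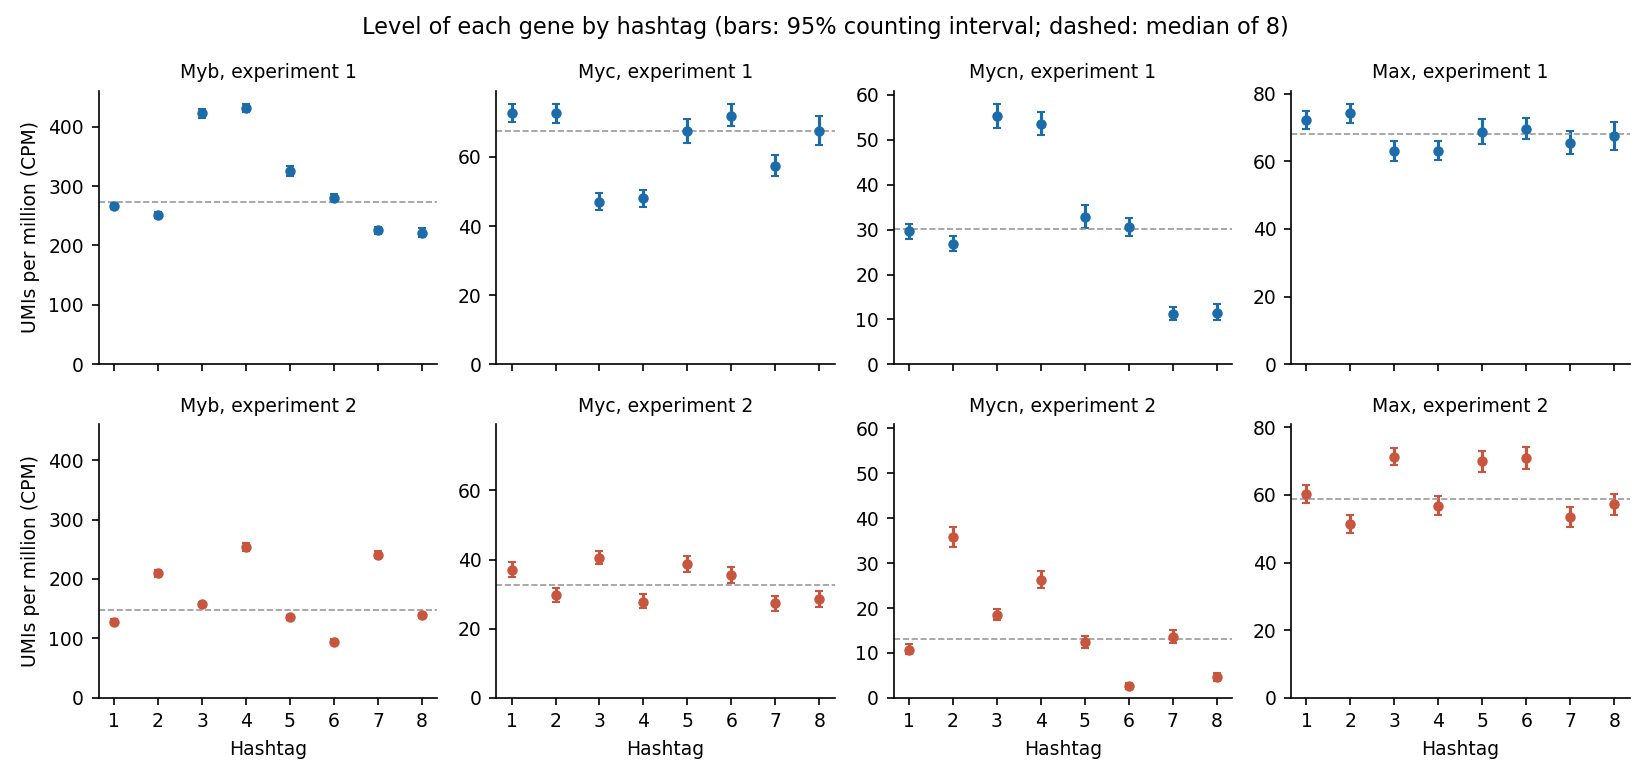
Level of each member (CPM, vertical axis) in hashtags 1 to 8 of experiment 1 (upper row) and experiment 2 (lower row). Points are levels over all single cells of a hashtag, bars are 95% counting intervals and dashed lines the median of the 8 hashtags. Mycn runs from 11.2 to 55.3 CPM in experiment 1, while Max stays between 63.0 and 74.2 CPM.

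Mycn ranged furthest among the members in both experiments. Hashtags 1 to 8 of experiment 1 held Mycn at 29.6, 26.9, 55.3, 53.6, 32.9, 30.5, 11.2 and 11.4 CPM. The hashtags fell into 3 levels with gaps between them: 3 and 4 on top, 1, 2, 5 and 6 between, and 7 and 8 below. The highest was 4.95 times the lowest (4.33 to 5.68), a ratio that 2.13% of genes reached. The neighbours in order were apart at the borders of these levels and, within the middle level, between hashtags 1 and 2. Mycn levels of experiment 2 were 10.8, 35.9, 18.5, 26.3, 12.5, 2.62, 13.6 and 4.58 CPM, with 5 of 7 neighbours apart. Hashtags 2 and 4 were highest, and hashtags 8 and 6 lowest. The ratio was 13.7 (10.7 to 17.7), which 1.32% of genes reached, and 7.83 without hashtag 6, whose level rests on 70 UMIs.

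Mycn had a near mirror in Runx1, which the study perturbed along with Runx3. The Pearson correlation with Runx1 of log2(CPM + 1) over 8 hashtags was -0.98 and -0.90 in the 2 experiments. For Myb it was -0.88 and -0.52, for Myc 0.46 and -0.06 and for Max 0.22 and 0.22. How many of all genes ran as opposite to Runx1 was not counted. Runx1 levels in hashtags 1 to 8 of experiment 1 were 76.9, 79.4, 38.2, 39.3, 96.5, 85.8, 241 and 210.0 CPM. The Mycn-high hashtags 3 and 4 had the lowest Runx1, and the Mycn-low hashtags 7 and 8 had the highest. Runx1 levels of experiment 2 were 57.5, 33.7, 52.9, 39.5, 58.8, 102, 86.7 and 121 CPM. The highest Mycn level was in hashtag 2, which had the lowest Runx1, and the lowest Mycn levels were in hashtags 6 and 8, which had the highest Runx1. Hashtag 7 of experiment 2 departed from the order, with more Runx1 than 5 other hashtags and more Mycn than 4 others. Whether vector transcripts are counted under Runx1 was not examined, and a gene that a guide has cut can still be transcribed, so these levels do not name a hashtag's condition. Runx3 was 171 and 171 CPM in hashtags 5 and 6 and 181 and 179 CPM in hashtags 7 and 8 of experiment 1, against 115 and 118 CPM in hashtags 3 and 4. In experiment 2 Runx3 was lowest in hashtags 4 and 2, at 74.7 and 95.3 CPM, and 117 to 145 CPM in the other 6.

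**Figure D2:**
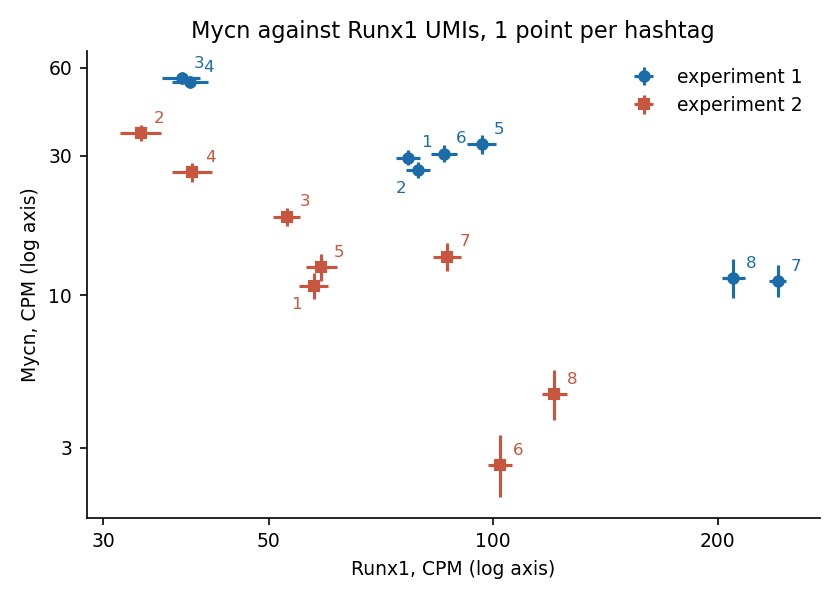
Mycn level against Runx1 level (both CPM, log axes), 1 point per hashtag with its number, circles for experiment 1 and squares for experiment 2, with 95% counting intervals as bars. Hashtags 3 and 4 of experiment 1 sit at the upper left (Runx1 38.2 and 39.3 CPM) and hashtags 7 and 8 at the lower right (Runx1 241 and 210.0 CPM).

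The coarse order of Mycn levels, though not each rank, was also seen among cells with at least 2 UMIs of both Kit and Il2ra. There the levels in hashtags 1 to 8 of experiment 1 were 38.6, 40.3, 60.5, 58.7, 38.8, 38.7, 13.8 and 17.3 CPM, again in 3 levels. Hashtag 2 was now highest of the middle level, not lowest. In experiment 2 hashtag 7, at 16.1 CPM in these cells, fell below hashtags 1 and 5, at 21.8 and 25.9 CPM. The highest-to-lowest ratio within these cells was 4.40 (3.41 to 5.77) in experiment 1. It was 8.76 in experiment 2 (4.16 to 22.1), from 4.75 CPM in hashtag 6, which rests on 7 UMIs, to 41.6 CPM in hashtag 2.

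Myc followed another order than Myb and Mycn. Hashtags 1 to 8 of experiment 1 held Myc at 72.7, 72.6, 47.0, 48.0, 67.5, 72.0, 57.4 and 67.6 CPM. Hashtags 3 and 4, highest for Myb and Mycn, were lowest for Myc. The ratio was 1.55 (1.45 to 1.65), and 23.4% of genes had a ratio as large. From hashtag 1 down to hashtag 5 no neighbours were apart, while hashtags 5 and 7, and 7 and 4, were. In experiment 2 the Myc levels were 37.1, 29.6, 40.6, 27.8, 38.7, 35.5, 27.3 and 28.5 CPM. They formed a higher set (hashtags 3, 5, 1 and 6) and a lower set (2, 8, 4 and 7), with the single gap between hashtags 6 and 2 and no other neighbours apart. The ratio of 1.48 (1.36 to 1.63) fell just short of the 1.5 asked for a call, and 37.3% of genes had one as large. In the cells with both Kit and Il2ra the Myc ratio was 1.66 in experiment 1 and 1.48 in experiment 2.

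Max, the shared partner, was the steadiest. Its levels in hashtags 1 to 8 of experiment 1 were 72.1, 74.2, 63.0, 63.1, 68.8, 69.6, 65.5 and 67.4 CPM, and no neighbours in that order were apart. The ratio was 1.18 (1.11 to 1.25), and 79.1% of genes varied as much or more. In experiment 2 the levels were 60.2, 51.3, 71.3, 56.8, 69.9, 70.8, 53.4 and 57.2 CPM. Hashtags 3, 6 and 5 were higher than the rest, the only neighbours apart being 5 and 1, and the ratio was 1.39 (1.31 to 1.48), which 47.5% of genes reached. The Max hashtags above the gap were 3 of the 4 in the higher set for Myc.

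Experiment 2 held less of 3 members per UMI than experiment 1. Over all single cells Myb was 308 CPM in the first and 167 CPM in the second, or 0.542 times as high (0.536 to 0.549). Myc was 63.3 and 34.0 CPM (0.537, 0.522 to 0.552), and every hashtag of experiment 1 was above every hashtag of experiment 2. Mycn was 33.4 and 15.96 CPM (0.478, 0.46 to 0.497). Max was 68.3 and 62.2 CPM (0.910, 0.889 to 0.931), short of a 1.5-fold difference. Among all genes 7.64% were at least 1.5-fold lower in experiment 2 and 3.25% at least 1.5-fold higher. In cells with both Kit and Il2ra the ratios were 0.64 for Myb, 0.612 for Myc and 0.590 for Mycn. Kit and Il2ra were themselves 0.528 and 0.515 times as high in experiment 2. Cells with 0 UMIs of both were 11.1% of experiment 1 and 27.4% of experiment 2. The experiments differ in library, in culture time, in this mix of cells and perhaps in the mix of conditions, and these cannot be told apart.

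Cells inside a hashtag were next sorted by stage genes, which compares cells of the same culture. Kit encodes the receptor of stem cell factor and marks the earliest cells. Il2ra, which encodes CD25, comes on as cells enter the T lineage, and Bcl11b, a zinc-finger factor, marks commitment to it. A gene was counted as present with at least 2 UMIs in a cell and absent with 0, and ratios were taken in each hashtag with at least 20 cells on both sides. Because the gates need UMIs, deeper cells pass them more easily. Median UMIs per cell in experiment 1 were 26462 with Kit only, 26840 with Kit and Il2ra, and 21170 with Il2ra only.

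Myb was highest in cells with more T-lineage genes. With both Kit and Il2ra present it was a median of 1.47 times its level in cells with Kit only in experiment 1, with a range over hashtags of 1.17 to 1.58. The median of experiment 2 was 1.46 times (1.20 to 1.70). It was higher in 8 of 8 hashtags each time, a direction that 11.5% and 6.54% of all genes shared in every hashtag. Cells with Kit only had a median of 0.714 times (0.583 to 0.857) and 0.707 times (0.565 to 0.981) the Myb of cells with Il2ra only, lower in 8 of 8 hashtags in both experiments. That direction in every hashtag was held by 8.72% and 7.78% of genes. Among Il2ra-positive cells, those with Bcl11b had 1.25 times (1.21 to 1.52, 7 of 7 hashtags) and 1.20 times (1.16 to 1.55, 6 of 6) the Myb of those without, a direction that 7.31% and 9.21% of genes held in every hashtag. None of these medians reached the 1.5-fold asked for a call in these gates.

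Myc went the other way along the same gates. Cells with Kit only had 1.41 times (1.12 to 1.96) and 1.44 times (1.32 to 1.92) the Myc of cells with Il2ra only, higher in 8 of 8 hashtags of both experiments. Of all genes 7.24% and 7.27% were higher in every hashtag. With both Kit and Il2ra the level was 0.795 times (0.690 to 0.842) that of Kit-only cells in experiment 1, lower in 8 of 8 hashtags, as were 7.53% of genes. The experiment 2 ratio was 0.854 (0.801 to 1.05), lower in 7 of 8. The counting interval of this ratio lay below 1 in 6 of 8 hashtags of experiment 1 and in 0 of 8 of experiment 2. Bcl11b made little difference to Myc, with medians of 0.891 and 0.981 and hashtags on both sides of 1.

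Mycn was lower in most hashtags once Bcl11b was present. Among Il2ra-positive cells the median ratio with Bcl11b over without was 0.630 in experiment 1 (0.435 to 1.04), lower in 6 of 7 hashtags. The median of experiment 2 was 0.575 (0.222 to 0.710) and lower in 6 of 6 hashtags, at least 1.5-fold, as 1.87% of genes were. Left to cells of 15000 to 40000 UMIs, the experiment 2 ratio was 0.52 and lower in 5 of 6 hashtags. The counting interval of this ratio over cells of every depth lay below 1 in 3 of 7 hashtags of experiment 1 and 5 of 6 of experiment 2. In experiment 1 it included 1 in hashtags 3 (1.04, 0.886 to 1.21) and 4 (0.892, 0.764 to 1.04), where Mycn was highest. Without hashtag 3, the only one above 1, the experiment 1 median was 0.601. Between cells with both Kit and Il2ra and cells with Kit only, Mycn was 1.36 times higher in experiment 1 (7 of 8 hashtags). The experiment 2 median was 1.51, higher in 5 of 8 hashtags with a range of 0.495 to 1.98, and 0.847 without cells of the other classes. The Max medians lay between 0.917 and 1.11 in these gates.

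**Figure D3:**
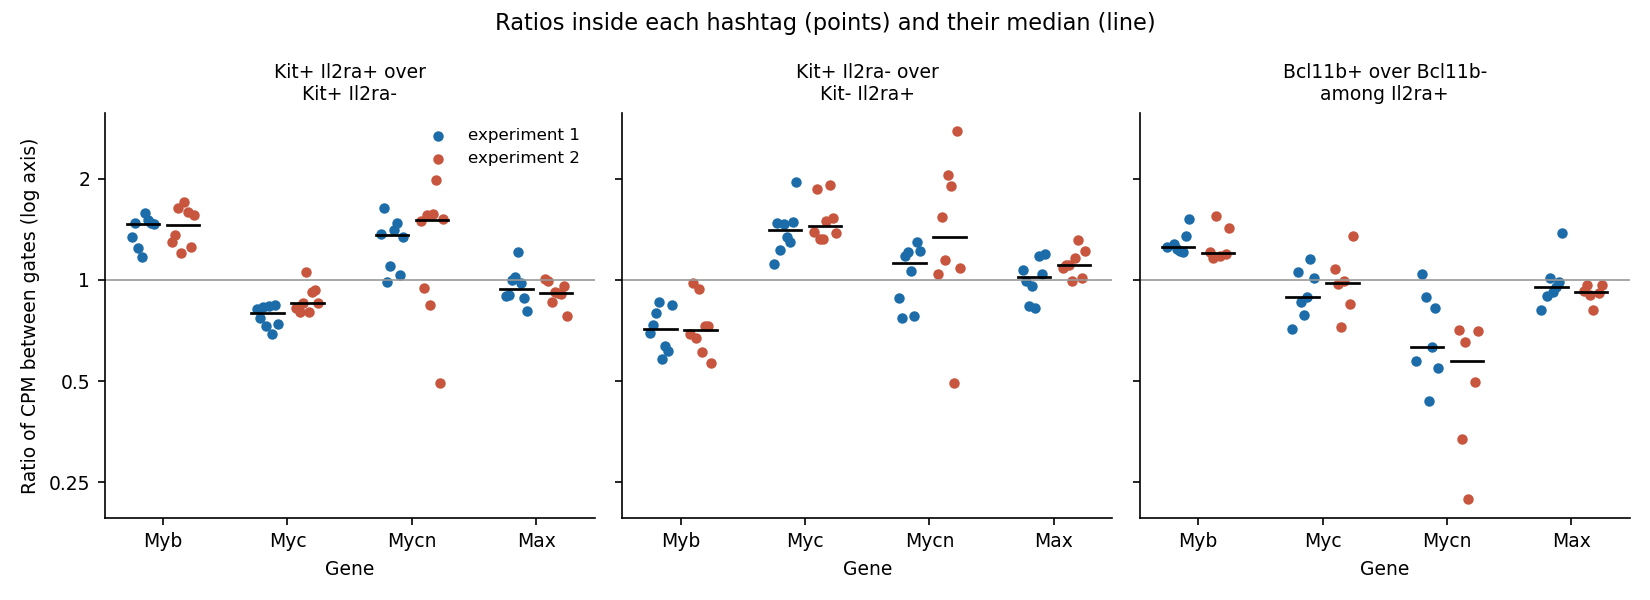
Ratio of each member's CPM between 2 gates of cells inside a hashtag (log axis), for the 3 comparisons by stage genes. Each point is a hashtag and each line the median, and a ratio of 1 is marked. Myb lies above 1 with both Kit and Il2ra in 8 of 8 hashtags of each experiment, while Myc lies below 1 there in 8 of 8 and 7 of 8.

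Cell-cycle genes were used for a further sort. Cells of each hashtag were ranked by the share of UMIs in 16 G2/M genes, or in 15 S-phase genes, and cut into 3 sets of equal size. The highest and lowest sets differ in depth, with medians of 30272 and 20087 UMIs for G2/M in experiment 1. Myc in the set highest in G2/M genes was 0.755 times its level in the lowest set in experiment 1 (lower in 7 of 8 hashtags) and 0.893 times in experiment 2 (6 of 8). Among cells of 15000 to 40000 UMIs the ratios were 0.662 and 0.659, lower in 8 of 8 hashtags of both experiments. At that depth a median at least 1.5-fold lower, with every hashtag lower, was held by 0.98% and 2.44% of genes. Myb was 0.870 times as high in the highest G2/M set of experiment 1, lower in 8 of 8 hashtags as were 9.57% of genes, and 0.895 times in experiment 2, lower in 5 of 8. Between the S-phase sets Myb was 1.09 and 1.26 times higher, in 8 of 8 hashtags of each experiment, as were 16.9% and 20% of genes. Over the processing alternatives these Myb medians ran from 1.03 to 1.09 and from 1.01 to 1.32, so the difference nearly vanished in some settings. For Mycn and Max, over cells of every depth, neither sort gave the same direction in every hashtag.

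Cells of other lineages were gated by their own markers, with at least 3 markers of a class present. Granulocyte-like cells numbered 272 in experiment 1 and 824 in experiment 2. Their Myb level was 176 CPM and 109.8 CPM, against 328 and 211 CPM in cells outside the 6 classes gated. Their Mycn was 7.01 and 8.85 CPM against 34.0 and 18.1 CPM, while their Myc was 75.4 and 35.9 CPM against 63.2 and 34.3 CPM. Pooled over hashtags, low Myb and Mycn thus went with granulocyte markers, and Myc did not follow them. The median Mycn over hashtags with at least 20 cells was 4.83 and 10.3 CPM in granulocyte-like cells. Outside the classes it was 33.4 and 15.7 CPM. In experiment 2 the granulocyte-like level ran from 0.206 to 19.9 CPM over hashtags. NK-like cells (73 and 208) had Myb at 148 and 49.8 CPM and Mycn at 32.3 and 6.60 CPM. In stromal-like cells of experiment 2 (214 cells) Myb was 50.7, Myc 15.8, Mycn 5.28 and Max 39.7 CPM, each below its level in cells outside the classes. A further gate on Cd74, Irf8, class II genes, Siglech and Itgax, listed as dendritic markers, took 20.6% and 32.7% of the cells. What these cells are was not tested, and the gate is not read as a cell type. Its Myb levels were 272 and 133 CPM.

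**Figure D4:**
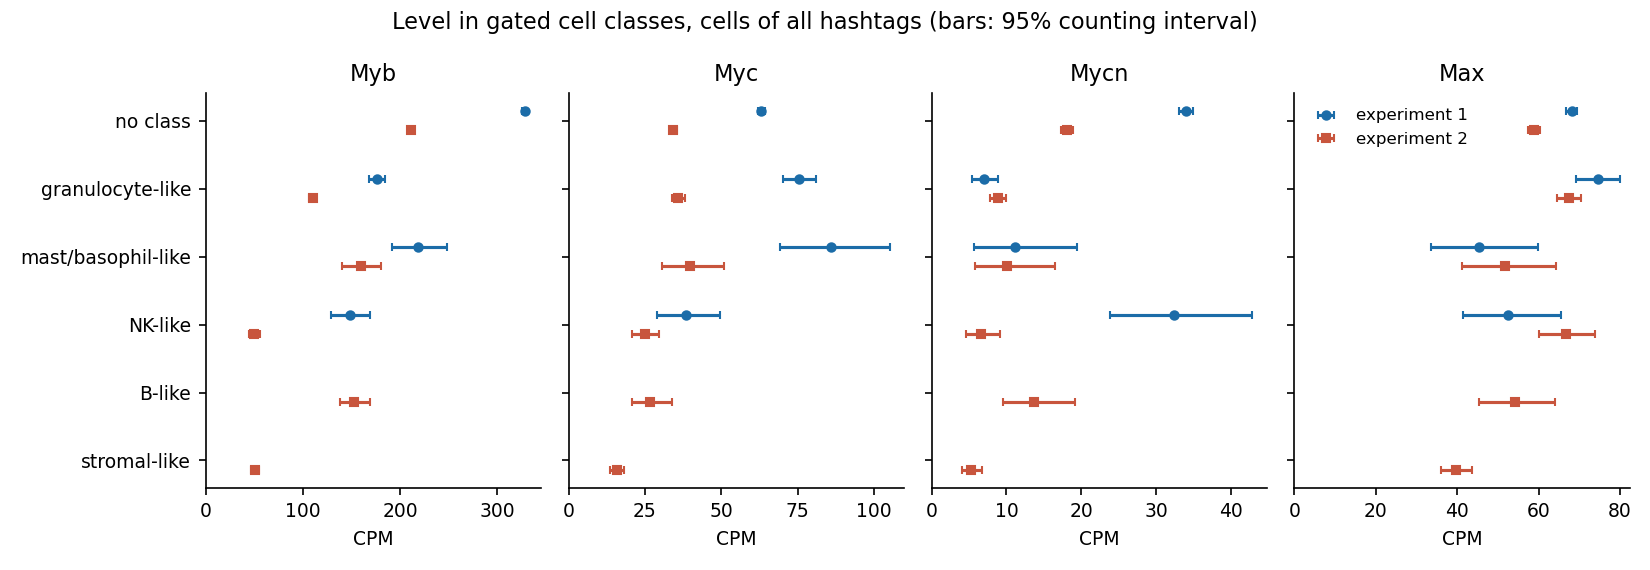
Level of each member (CPM, horizontal axis) in gated classes of cells pooled over hashtags, with 95% counting intervals as bars, for classes of at least 20 cells. In granulocyte-like cells Mycn is at 7.01 and 8.85 CPM in the 2 experiments, against 34.0 and 18.1 CPM in cells outside the 6 classes.

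The share of cells with at least 1 UMI was compared after thinning each cell to 10000 UMIs, which left out 573 shallower cells in experiment 1 and 589 in experiment 2. Myb was then found in 75.8 to 95.3% of the cells of a hashtag in experiment 1 (median 86.3%) and in 53.0 to 85.7% in experiment 2 (67.9%). At full depth these ranges were 86.0 to 98.5% and 72.3 to 92.4%. Mycn was found in 8.22 to 40.8% (23.5%) and 2.42 to 30% (11.7%) of thinned cells, and at full depth in 14.2 to 65.1% and 5.47 to 50.0%. For both genes the hashtags at the ends of this range were at the ends of the CPM order or next to them. Myc was in 33.2 to 45.2% and 20.5 to 31.3%, and Max in 45.8 to 51.5% and 40.1 to 49.7% of thinned cells.

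RNA free in the droplets can give such UMIs, so the same shares were taken in stromal-like cells. These were gated by markers of stroma, which a CD45+ sort is meant to remove. Whether some are doublets with blood cells was not tested. These cells were deeper, with a median of 49939.5 UMIs before thinning in experiment 2, against 26034 in all other cells. Of 212 such cells 2.83% had Mycn after thinning, against 14.0% of all other cells. At full depth the shares were 16.4% and 26.2%. Hashtag 6 of experiment 2 was at 2.42% thinned and 5.47% at full depth, and hashtag 8 at 3.41% and 9.24%. Mycn in hashtag 6 was therefore not above the stromal-like share at either depth, and that in hashtag 8 was above it only after thinning. The Mycn ratio of 13.7 is a ratio to such a level. In experiment 1 only 16 stromal-like cells were found, of which 12.5% had Mycn, above the 8.22% and 11.04% of hashtags 7 and 8.

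The other members were also found in stromal-like cells of experiment 2. Myb was in 31.6% of them after thinning and 53.7% at full depth, below every hashtag both times. Myc was in 15.1% after thinning, below every hashtag, but in 52.3% at full depth, above 6 of the 8 hashtags (35.0 to 59.1%). Max was in 38.7% after thinning, close under the lowest hashtag at 40.1%, and in 82.2% at full depth, against 63.9 to 82.9% over hashtags. Whether these are free RNA, transcripts of the stromal-like cells or doublets with blood cells was not tested.

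Single cells often held several members. Mycn was found more often in thinned cells with Myb than in those without it, in 8 of 8 hashtags of both experiments. The medians over hashtags were 25.2% against 14.9% in experiment 1 and 14.4% against 6.93% in experiment 2. Cells with and without Myc differed less in Mycn, with medians of 24.7% and 23.3% in experiment 1 and 16.5% and 10.1% in experiment 2, higher with Myc in 5 and 6 of 8 hashtags. Free RNA and doublets inside a hashtag can also put transcripts of both genes in 1 barcode, and their part was not tested.

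Among relatives of the members only Mybl2 was well detected. Mybl2, the Myb relative that acts in the cell cycle, ranged in experiment 1 from 32.1 to 48.0 CPM and in experiment 2 from 28.2 to 38.9 CPM, ratios of 1.495 (1.37 to 1.63) and 1.38 (1.26 to 1.52). Mybl1 stayed between 0.846 and 1.66 CPM over both experiments, and no neighbours in experiment 1 were apart. Mycl was between 0.0451 and 0.414 CPM in experiment 1, with 1 UMI in its lowest hashtag, and between 0.344 and 2.51 CPM in experiment 2.

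Of 12 Myb relatives and cofactors, 10 were measured well enough to be tested, with 5 CPM or more on average and no hashtag under 10 UMIs. In experiment 1 only 1 (10%) was called, against 26.6% of all genes. This was Cebpb, which encodes a factor of myeloid cells that works with Myb, from 55.1 to 108 CPM. Without hashtag 8 none was called. In experiment 2, 2 (20%) were called, against 36% of all genes. Cebpb ran from 39.1 CPM in hashtag 7 to 104 CPM in hashtag 6, the hashtags with the lowest and highest granulocyte marker sums (198 and 12297 CPM). Kmt2a, a histone methyltransferase gene, was 65.1 CPM in hashtag 4 and 37.6 CPM in hashtag 1. Men1, which encodes the menin partner of that enzyme, reached 1.39 in experiment 1, and Lin37, a subunit of the complex that Mybl2 joins, reached 1.44 in experiment 2. The median ratio of the list was 1.29 in experiment 1 and 1.28 in experiment 2, against 1.31 and 1.37 over all genes tested. Between the experiments 2 of the 10 were at least 1.5-fold lower in experiment 2 and 0 higher, against 7.64% and 3.25% of all genes.

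Of 20 genes of the Myc-Max network, 16 were tested. Of these, 4 (25%) were called in experiment 1, against 26.6% of all genes, and 6 (37.5%) in experiment 2, against 36%, with medians of 1.31 and 1.43 against 1.31 and 1.37 over all genes. The largest ratios in both experiments belonged to Mxd1, Mxd3 and Mxd4, whose proteins compete with Myc for Max. Mxd4 was 19.1, 17.4, 41.1, 39.6, 31.0, 24.1, 36.4 and 28.3 CPM in hashtags 1 to 8 of experiment 1, highest in the 2 hashtags with least Myc. In experiment 2 it was 22.8, 48.9, 17.7, 38.7, 25.2, 25.0, 30.7 and 28.1 CPM, lowest in hashtag 3, which had most Myc. Mxd3, an S-phase member of that family, was highest in hashtag 4 of both experiments, at 19.6 and 28.6 CPM. Mxd1 was lower throughout, at 5.22 to 13.9 CPM in experiment 1 and 3.79 to 9.84 CPM in experiment 2. Between the experiments 4 of the 16 were at least 1.5-fold lower in experiment 2 and 0 higher, against 7.64% and 3.25% of all genes.

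All 30 growth genes known as Myc targets were tested. In experiment 1, 3 (10%) were called, against 26.6% of all genes, and in experiment 2, 9 (30%) against 36%, both shares below those of all genes in this setting. The 3 were Ccnd2, which encodes cyclin D2, Rrp12, a ribosome assembly gene, and Tfrc, which encodes the transferrin receptor. Without hashtag 7 only 1 of the 30 was called. As a mean over cells 11 and 17 of the 30 were called in the 2 experiments, and the share of all genes was not taken in that setting. Ccnd2 was 167 to 281 CPM in experiment 1 (ratio 1.68, 1.62 to 1.75) and 139 to 252 CPM in experiment 2 (1.81, 1.74 to 1.89). Tfrc was highest in hashtag 3 of experiment 1 (180 CPM) and hashtag 2 of experiment 2 (117 CPM), where Mycn was highest too. Most of the list did not share this: 2 of the 30 were highest in that hashtag of experiment 1 and 1 in that of experiment 2. In experiment 1, 12 were highest in hashtag 1 and 12 in hashtag 2, and in experiment 2, 15 in hashtag 1 and 13 in hashtag 3. Hspd1, a mitochondrial chaperone gene, was 570 to 903 CPM in experiment 2. The median ratios of the list were 1.34 and 1.43, against 1.31 and 1.37 over all genes. Between the experiments 3 of the 30 were at least 1.5-fold lower in experiment 2 and 0 higher, against 7.64% and 3.25% of all genes.

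The summed level of the 30 growth genes followed Myc in part. In hashtags 1 to 8 of experiment 1 it was 16263, 16258, 13311, 13391, 14573, 14785, 12652 and 13428 CPM. Hashtags 1 and 2 were highest for both, and hashtags 3 and 4 were low for both. Hashtag 7 had the lowest growth sum but more Myc than hashtags 3 and 4, and hashtag 8 had a low sum beside 67.6 CPM of Myc. The sums of experiment 2 were 15242, 12159, 14971, 11230, 13200, 12765, 11480.5 and 12673 CPM. The 2 highest sums, in hashtags 1 and 3, and the 2 lowest, in hashtags 4 and 7, fell in the higher and lower Myc sets.

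Cells of the same hashtag with and without Myc UMIs were then compared, a step chosen after the values above were seen. Only cells of 15000 to 40000 UMIs were used. In experiment 1, 13 of the 30 growth genes were higher in every hashtag in cells with at least 2 Myc UMIs than in cells with 0, as were 4.27% of all genes. In experiment 2 it was 26 of 30, as were 8.55% of all genes. The median over the growth genes was 1.09 and 1.20, against 0.996 for all genes in both experiments, so the differences are small. All 30 medians over hashtags were above 1 in each experiment. Gnl3, a nucleolar GTPase gene, was 1.16 times higher (range 1.08 to 1.27) in experiment 1 and 1.33 times (1.16 to 1.56) in experiment 2. Ncl, which encodes the nucleolar protein nucleolin, was 1.11 times (1.05 to 1.18) and 1.29 times (1.12 to 1.45) higher. Nme1, a nucleotide kinase gene, was at 1.01 and 1.06. These 3 genes were chosen after their values were seen.

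Depth moved with this sort. Median UMIs were 26835 in cells with Myc and 24146 without in experiment 1, and 29464 and 24788 in experiment 2. In cells of 20000 to 30000 UMIs, where the medians were 25336 and 24533 or 26015 and 24772, the count was 10 of 30 and 12 of 30. The median ratios there were 1.09 and 1.17, with 28 and 29 of the 30 genes above 1. Without cells of the other classes the count was 13 in experiment 1 and 16 in experiment 2, with medians of 1.09 and 1.14.

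Mycn gave a weaker pattern. In experiment 1, 1 of the 30 growth genes was higher in every hashtag in cells with at least 2 Mycn UMIs, as were 5.03% of all genes, and the median ratio was 0.988. In experiment 2 it was 13 of 30 over the 6 hashtags with enough cells, as were 8.52% of all genes, with a median of 1.09. Without cells of the other classes 3 of 30 were higher in every hashtag of experiment 2. Of the 16 G2/M genes, 11 were higher in every hashtag of experiment 1 in cells with Mycn, with a median of 1.25 against 1.01 over all genes. In experiment 2 none of them was, with a median of 1.05 against 1.01. Sorted the other way, Mycn in cells high over cells low in G2/M genes was 0.971 and 1.05 times as high at the same depths, higher in 3 and 4 of 8 hashtags. Bcl11b was lower in cells with Mycn in 8 of 8 and 6 of 6 hashtags, with medians of 0.495 and 0.343, while 3.59% and 7.97% of all genes were lower in every hashtag. Kit was higher in the same hashtags, 1.27 and 1.55 times.

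**Figure D5:**
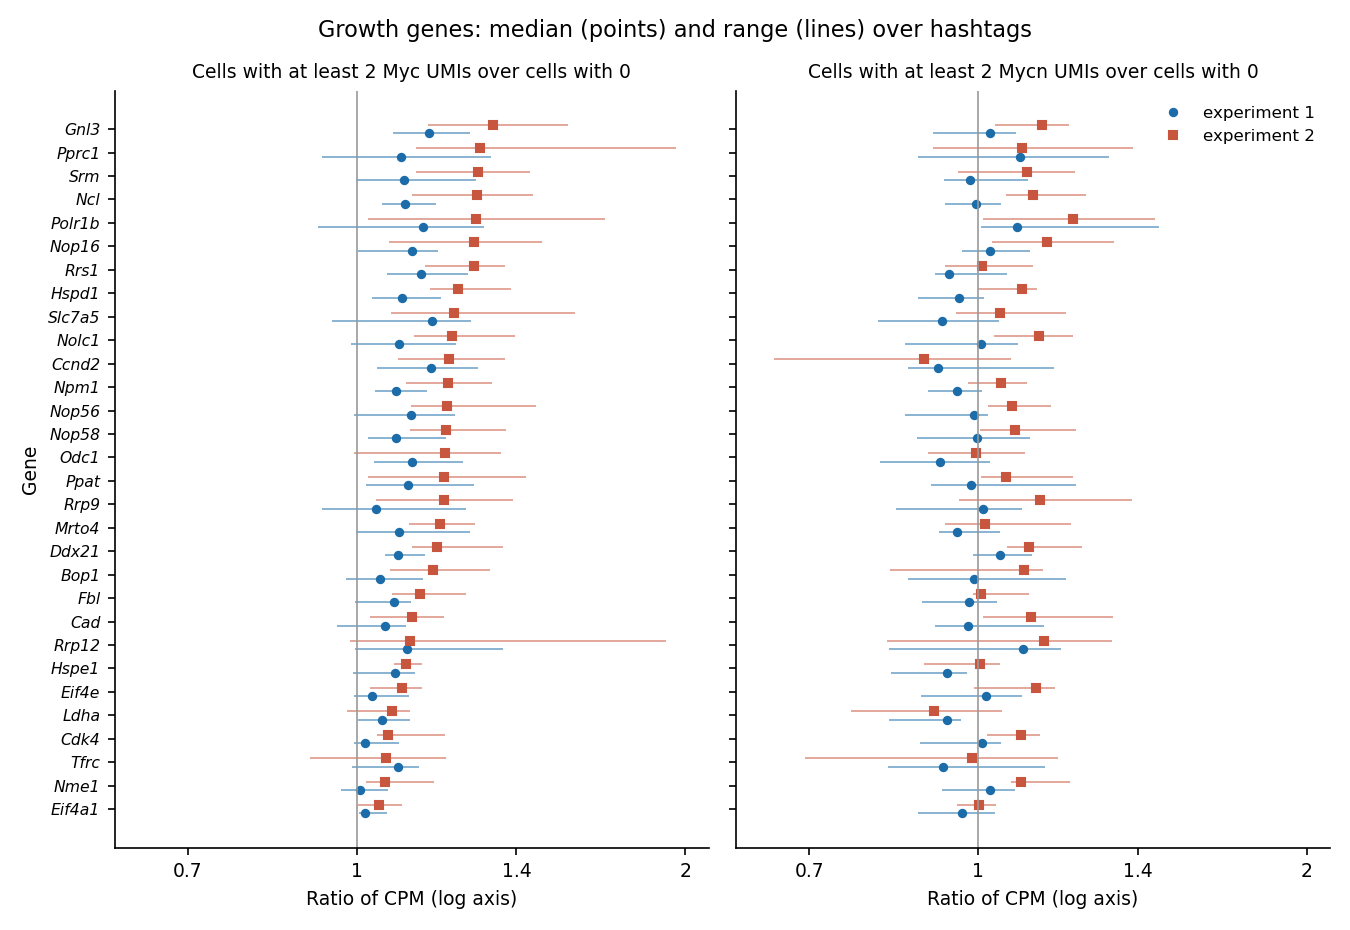
Ratio of CPM (log axis) of the 30 growth genes in cells with at least 2 UMIs of Myc (left) or Mycn (right) over cells with 0, inside hashtags. Points are medians over hashtags and lines their range, circles for experiment 1 and squares for experiment 2. With Myc all 30 medians lie above 1 in both experiments, while with Mycn they lie above 1 for 11 genes in experiment 1 and 26 in experiment 2.

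Cutting the cells of each hashtag into 3 equal sets by Myb level, among the same range of depths, went with T-lineage genes. Bcl11b in the highest set was a median of 5.06 times (2.64 to 12.8) its level in the lowest in experiment 1 and 5.30 times (1.74 to 8.83) in experiment 2. Il2ra was 2.74 times (1.86 to 5.18) and 4.31 times (1.72 to 8.80) higher. Cd3g, which encodes a chain of the T-cell receptor complex, was 4.28 and 3.81 times higher. Each of the 3 was higher in 8 of 8 hashtags of both experiments, as were 13.7% and 12.6% of all genes. Of the T-progenitor markers measured, 6 of 9 and 6 of 10 were higher in every hashtag. The medians over that list were lower than for these 3, at 1.99 and 2.17. Cells of the other classes were not left out of this sort. Mycn was 1.65 times higher in experiment 1 (8 of 8 hashtags) and 2.51 times in experiment 2 (6 of 8). Of 30 growth genes 2 and 5 were higher in every hashtag.

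The genes most like Myb and Myc over hashtags were ranked among 4964 genes averaging 20 CPM or more in both experiments. Likeness was the smaller of the 2 within-experiment Pearson correlations of log2(CPM + 1) over 8 hashtags, which share a library and its depth. For Myb the 5 most like genes were Crip1, Ezr, Ly6d, Patz1 and Ssbp3, with correlations of 0.98 to 0.99 in experiment 1 and of 0.98 to 0.99 in experiment 2. Crip1, which encodes a small LIM-domain protein, was 681 to 2126 CPM over the hashtags of experiment 1 and 576 to 3086 CPM over those of experiment 2. Ly6d, a surface protein gene of lymphoid progenitors, ran from 32.8 to 198 CPM and from 15.5 to 281 CPM. Ezr encodes ezrin, which ties the membrane to the cell cortex, and ran from 117 to 244 and from 93.5 to 221 CPM.

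For Myc the 5 were St6galnac4, Psmg4, Slc25a12, Dym and Zfyve19, with correlations of 0.92 to 0.97 and 0.92 to 0.96. St6galnac4, a sialyltransferase gene, was lowest in hashtags 3 and 4 of experiment 1, as Myc was, at 31.5 and 33.7 CPM against 47.6 to 61.3 CPM in the other hashtags. Psmg4, which encodes a proteasome assembly chaperone, was 84.8 to 107 CPM over the hashtags of experiment 1 and, in experiment 2, 93.9 to 127 CPM. None of the 5 was among the 30 growth genes, but with 4964 genes ranked an overlap was unlikely in any case.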

How the data were processed

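Single-cell mRNA and hashtags were measured in 2 pools of cultures. The values are UMI counts per gene and cell and counts per hashtag and cell, raw as deposited by the authors. Cell Ranger 3.0.0 and the builds mm10 and GRCm38 are named in the submitters' processing notes, with no role given. Barcodes were kept as cells from 500 genes and below 10% mitochondrial UMIs (9332 of 9967 barcodes and 10214 of 10556). A cell took the hashtag with at least 50 counts and at least 3 times the second (94.3% and 81.6% of cells). Cells with no such hashtag were left out, which removes most doublets between hashtags and none within them, and no doublet caller was run. The libraries shared 39 cell barcodes.

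UMIs were summed per hashtag and given per 1e6 (CPM), with exact Poisson intervals and exact conditional intervals of ratios at 95%. Genes were tested from 5 CPM on average, with no hashtag under 10 UMIs. Because no hashtag has a known condition, no groups were formed, no p-value was computed, and each call is set beside the share of all genes called. Genes were named by rule: the members, Mybl1, Mybl2 and Mycl, the 3 largest ratios of each list per experiment, and the 5 genes most like Myb and Myc. Gnl3, Ncl and Nme1, and stage genes and Runx genes beside the members, were named after their values were seen. The members and lists were chosen with earlier results of these data known. Python 3.11.15, numpy 2.4.6, scipy 1.17.1, pandas 2.3.3, matplotlib 3.10.9, and in R 4.3.3 Seurat 5.3.0 (HTODemux) and edgeR 4.0.16 (TMM scaling of the counts only) were used. The steps were tested on simulated data. Alternatives covered hashtag calls, cell filters, depth, other cell types, scaling, weighting, gate thresholds and each hashtag left out.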

Additional observations from a re-analysis of the deposited data

Results flagged for a closer look

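No level of the 28 named genes in either experiment stood far from the other 7 hashtags by Dixon's rule (0 of 56 sets of 8 values). Chance alone would mark about 1 set in 20.

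Transcripts of the members were also present in cells outside the comparisons, above the limit that a count of 0 allows. Cells of experiment 1 with no single hashtag (535) held 310.9 CPM of Myb, 64.4 CPM of Myc, 31.6 CPM of Mycn and 65.6 CPM of Max. In experiment 2 such cells (1879) held 136, 30.9, 10.1 and 56.9 CPM of the same genes. These lie inside the ranges of the single hashtags. Barcodes that failed the cell filter held less Myc and Max. In experiment 1 the 635 such barcodes held 218 CPM of Myb, 26.6 CPM of Myc, 22.0 CPM of Mycn and 39.0 CPM of Max. In experiment 2 the 342 such barcodes held 137 CPM of Myb, 15.4 CPM of Myc and 33.6 CPM of Max.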

How the results depend on the processing

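No alternative reversed a called ratio between gates or between experiments. The highest-to-lowest ratios were taken anew as highest over lowest in each setting, so they could not reverse. The Myc ratio of experiment 2, at 1.48, passed 1.5 with HTODemux (1.56), the stricter cell filter (1.51), without other cell types (1.54, or 1.56 with the Cd74 and Irf8 gate kept), without the 5% of cells with most UMIs (1.51), with TMM scaling (1.60) and as a mean over cells (1.54). TMM factors spread over 0.06 in experiment 1 and 0.15 in experiment 2 (log2). The Mycn ratio of experiment 2 was 8.76 in cells with Kit and Il2ra. Leaving out 1 hashtag at a time gave 7.83 to 13.7 for that ratio, 1.36 to 1.56 for Myb with Kit and Il2ra over Kit only, 1.14 to 1.54 for Mycn with Kit only over Il2ra only (all in experiment 2) and 0.601 to 0.727 for Mycn by Bcl11b in experiment 1.

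Some list counts moved. Called Myb relatives in experiment 1 were 2 without the cells with most UMIs and with TMM and 3 as a mean over cells, and 0 to 1 with a hashtag left out. In experiment 2 they were 4 without other cell types. Called Myc-Max genes averaging 20 CPM or more were 1 and 2, beside 17.3% and 25.7% of all genes called at that average. Called growth genes in experiment 1 were 1 at 15000 to 40000 UMIs, 5 with TMM, 11 as a mean over cells and 1 to 3 with a hashtag left out. In experiment 2 they were 14 without other cell types, 15 with TMM and 17 as a mean over cells. Apart from the limit of 20 CPM, the share of all genes called was not taken under these alternatives, so the list counts have no background there.

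Among gates, 15000 to 40000 UMIs gave Myc 0.662 and 0.659 by G2/M genes, Myc 1.51 with Kit only over Il2ra only in experiment 2, and Mycn 0.52 by Bcl11b in experiment 2. Without other cell types in experiment 2, Kit only over Il2ra only was 1.56 for Myc and 1.58 for Mycn, and Mycn with Kit and Il2ra over Kit only was 0.847. That Myc ratio was 1.501 without the cells with most UMIs, and Myb with Kit and Il2ra was 1.51 with presence from 1 UMI. Growth genes higher in every hashtag with Myc were 24 at any depth in experiment 1, and in experiment 2 16 without other cell types and 12 at 20000 to 30000 UMIs. With Mycn they were in experiment 1 0 without other cell types, at 20000 to 30000 UMIs and from 1 UMI, 3 at any depth and 1 to 3 with a hashtag left out, and in experiment 2 3 without other cell types and 6 at 20000 to 30000 UMIs. The cause of these changes was not tested. The Cd74 and Irf8 gate, the cells with both Kit and Il2ra and the growth gene alternatives were chosen after seeing the data. No paired analysis was possible because the hashtags carry no condition or replicate number, other than the comparisons of cells inside each hashtag. Depth limits Mycn most, at 70 UMIs in its lowest hashtag.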
